A study of Mus musculus with 4 samples.

Results

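The genes of polyamine synthesis and turnover were examined on expression arrays of cultured mouse blood progenitors that lacked Btg1, carried the leukemia fusion ETV6-RUNX1, or both. The genes were listed by symbol as SRM, SMS, ODC1, OAZ1, OAZ2, SAT1 and AMD1, in the capitals of the array table. The list was selected on measured values, since SRM was among the largest falls in cells with both lesions. Its values are therefore given as a description, and nothing is supported with them. Of the 7 symbols, 4 had a row among the 18113 gene names of the value table, namely SRM, SMS, ODC1 and OAZ2. OAZ1, SAT1 and AMD1 matched no row by symbol and were not analysed here. Of the 4, SRM, ODC1 and OAZ2 lay at or above a log2 level of 6 on all 4 arrays, and SMS lay below it on all 4. A level of 6 served as the floor, below which a value gives only a bound.

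Polyamines are small positively charged molecules that bind RNA and DNA and that dividing cells make in quantity. Ornithine decarboxylase (ODC1) makes putrescine from ornithine, spermidine synthase (SRM) adds an aminopropyl group to give spermidine, and spermine synthase (SMS) adds another to give spermine. The aminopropyl groups come from S-adenosylmethionine after its decarboxylation by the AMD1 enzyme. Antizymes (OAZ1, OAZ2) bind ornithine decarboxylase and send it to the proteasome when polyamines are plentiful, and SAT1 acetylates spermidine and spermine for export or breakdown. ODC1, SRM and AMD1 are known targets of the transcription factor MYC, and spermidine also supplies the hypusine residue of the translation factor EIF5A.

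The cells were fetal liver progenitors of C57BL6/J embryos at day 13.5, enriched with magnetic beads for c-Kit and depleted of Ter119, an erythroid marker. The 4 groups were Btg1-/- cells with an ETV6-RUNX1 retrovirus, Btg1-/- cells with control virus (Ctrl), wild-type (WT) cells with the ETV6-RUNX1 retrovirus, and wild-type cells with control virus. All were expanded for 24 hours, infected, kept for 48 hours more and then grown for 12 days with 10 ng/ml FLT-3L, 20 ng/ml IL-7 and 100 ng/ml SCF. The labels do not give how many embryos made up a culture or what share of the cells carried virus. ETV6-RUNX1 is a fusion of transcription factors found in childhood B-cell leukemia, and BTG1 is an antiproliferative gene often deleted in it. Each group had 1 array, so no difference has a replicate check and no p-value is given. Values are RMA levels on the log2 scale. A gene counted as past the threshold where its 2 arrays differed by at least 2-fold, a log2 difference of 1.

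The arrays each had 5869 to 5900 genes that reached the floor. BTG1, which checks the labels, stood at 9.97 and 9.02 in Btg1-/- cells with ETV6-RUNX1 and with Ctrl, against 11.97 and 11.87 in wild-type cells with ETV6-RUNX1 and with Ctrl. It was thus lower on both Btg1-/- arrays but still above the floor. Between those arrays it was 0.95 higher with ETV6-RUNX1 than with Ctrl. What part of the gene its probes read was not examined. Among bright genes the array of Btg1-/- cells with ETV6-RUNX1 stood apart from the others. Over 1535 such genes, those averaging 10 or more, the log2 differences had a robust SD of 0.240 to 0.296 in the 3 comparisons that used this array and of 0.12 to 0.14 in the other two. The count of genes past 2-fold did not follow this order, with 97 for Btg1 loss in the presence of ETV6-RUNX1, which used this array, and 137 for ETV6-RUNX1 in wild type, which did not. Each gene's difference is given with its spread, the same robust SD taken over the gene and its neighbors in mean level, 250 brighter and 250 dimmer. This spread covers differences among genes of like level on the same 2 arrays, not the variation between cultures.

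SRM, spermidine synthase, had a level of 8.30 in Btg1-/- cells with ETV6-RUNX1, 10.31 in Btg1-/- cells with Ctrl, 9.91 in WT cells with ETV6-RUNX1 and 9.95 in WT cells with Ctrl. It was low on the array with both lesions and high on the other 3. The order of the levels ran from Btg1-/- with Ctrl through WT with Ctrl and WT with ETV6-RUNX1 to Btg1-/- with ETV6-RUNX1. Within this order the 2 wild-type arrays differed by 0.04, less than the spread of 0.16, and the other neighbors differed by more than theirs. With ETV6-RUNX1 in Btg1-/- cells SRM was 4.01-fold lower (log2 difference -2.00, spread 0.33), and 7 of the 6159 genes compared had lower differences. In wild-type cells ETV6-RUNX1 went with a difference of -0.04. With Btg1 loss SRM differed by -1.61 (spread 0.30) in the presence of the fusion and by 0.35 (spread 0.13) in its absence. Against wild-type cells with Ctrl, cells with both lesions differed by -1.65 (spread 0.34). SRM has 3 rows in the authors' non-normalized probe table, and the sources used here do not say how its value was derived from them.

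ODC1, the enzyme of the first step, had a level of 11.09 in Btg1-/- cells with ETV6-RUNX1, 12.11 in Btg1-/- cells with Ctrl, 11.90 in WT cells with ETV6-RUNX1 and 11.97 in WT cells with Ctrl. The arrays stood in the same order as for SRM, and again only the 2 wild-type arrays, 0.08 apart with a spread of 0.13, lay within the spread of their neighbor. With ETV6-RUNX1 in Btg1-/- cells ODC1 was 2.02-fold lower (log2 difference -1.02, spread 0.30), which places it at rank 135 from the lowest of 6159 genes. With Btg1 loss in the presence of ETV6-RUNX1 the difference was -0.80 (spread 0.23), and with both lesions against WT with Ctrl it was -0.88 (spread 0.26), both short of 2-fold. Without the fusion, Btg1 loss went with a difference of 0.14 (spread 0.11), and ETV6-RUNX1 in wild type with -0.08.

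Promoter sequences, from RefSeq on GRCm38.p6 and covering 250 bases before to 50 after the start, were searched for the E-box CACGTG, the core site of MYC and MAX, which reads the same on both strands. Entries were held for 6 of 7 genes looked up, SMS, ODC1, OAZ2, ENOPH1, MTAP and AMD2, and not for SRM. The promoters of ODC1 and ENOPH1 are shown because these genes had close profiles over the 4 arrays. ENOPH1, an enzyme of the methionine salvage route that recycles a by-product of spermidine synthesis, was picked for this after its values had been seen. Capitals mark the E-box, and the ODC1 window holds none. In ENOPH1 its first base is base 11 after the start. Of the others searched, SMS holds it in 1 of its 2 promoters, at -196 from the start, and OAZ2, MTAP and AMD2 hold none. Of 32851 promoters in the table, 7.15% hold the motif. A match describes the letters only and is not a binding site. Bases outside the window were not searched, so the lack of a match does not bear on sites there.
ODC1, chr12:17544623-17544922, + strand: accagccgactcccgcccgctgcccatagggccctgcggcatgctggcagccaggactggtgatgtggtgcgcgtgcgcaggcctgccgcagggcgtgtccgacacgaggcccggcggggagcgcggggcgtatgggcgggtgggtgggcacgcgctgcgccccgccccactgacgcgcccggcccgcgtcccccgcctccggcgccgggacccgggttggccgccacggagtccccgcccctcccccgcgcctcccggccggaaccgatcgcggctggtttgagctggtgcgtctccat
ENOPH1, chr5:100039744-100040043, + strand: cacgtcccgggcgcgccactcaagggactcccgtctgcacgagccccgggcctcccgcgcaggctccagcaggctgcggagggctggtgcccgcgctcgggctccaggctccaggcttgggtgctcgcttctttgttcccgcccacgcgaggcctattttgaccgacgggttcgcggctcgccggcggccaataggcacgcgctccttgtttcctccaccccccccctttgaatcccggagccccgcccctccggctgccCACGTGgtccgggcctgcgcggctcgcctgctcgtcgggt

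OAZ2, an antizyme that restrains ornithine decarboxylase, had a level of 8.82 in Btg1-/- cells with ETV6-RUNX1, 8.41 in Btg1-/- cells with Ctrl, 8.56 in WT cells with ETV6-RUNX1 and 8.70 in WT cells with Ctrl. Its highest level was on the array where SRM and ODC1 were lowest, but no neighbors in the order of its levels differed by more than their spread. ETV6-RUNX1 in Btg1-/- cells went with a difference of 0.41 (spread 0.36), and in wild-type cells with -0.14 (spread 0.23). Btg1 loss went with 0.26 (spread 0.29) in the presence of the fusion and with -0.29 (spread 0.20) in its absence. The first and the last of these 4 differences were larger than their spread, and none reached 2-fold. Antizymes act on the enzyme protein and are controlled by a ribosomal frameshift, which transcript levels do not show.

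SMS, spermine synthase, had levels of 2.33 in Btg1-/- cells with ETV6-RUNX1, 2.48 in Btg1-/- cells with Ctrl, 2.57 in WT cells with ETV6-RUNX1 and 2.14 in WT cells with Ctrl. All 4 values lie below the floor, so no fold is given and they have no order. The gene is on the X chromosome. XIST, the RNA of the inactive X, differed between the cultures, at 7.85 and 7.01 in Btg1-/- cells with ETV6-RUNX1 and with Ctrl, against 8.59 and 9.0 in WT cells with ETV6-RUNX1 and with Ctrl. The Y-linked EIF2S3Y had 10.03 and 9.93 in Btg1-/- cells with ETV6-RUNX1 and with Ctrl. In WT cells with ETV6-RUNX1 and with Ctrl it had 9.07 and 9.43. JARID1D (Kdm5d), also Y-linked, reached the floor only in Btg1-/- cells, at 6.49 with ETV6-RUNX1 and 6.92 with Ctrl, and DDX3Y and UTY reached it on no array. These levels differed along with genotype, and their part in the other differences was not tested.

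**Figure D1:**
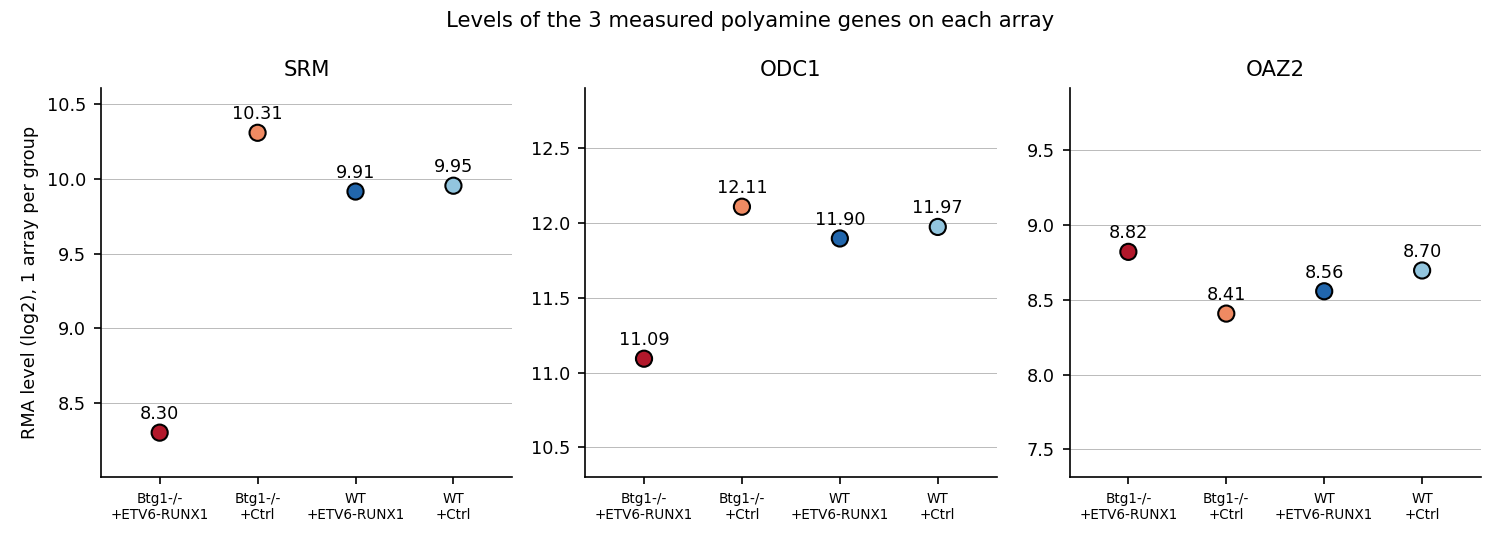
RMA levels on the log2 scale (vertical axes, each spanning the same number of log2 units) of SRM, ODC1 and OAZ2 on the 4 arrays (horizontal axes), 1 point per array. SRM at 8.30 and ODC1 at 11.09 are lowest in Btg1-/- cells with ETV6-RUNX1, where OAZ2 at 8.82 is highest.

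Counted together, 2 of the 3 measured genes were at least 2-fold lower with ETV6-RUNX1 in Btg1-/- cells, namely SRM, which chose the list, and ODC1, and 0 were at least 2-fold higher. Over all genes of that comparison, 2.37% were at least 2-fold lower and 1.69% at least 2-fold higher. With Btg1 loss in the presence of ETV6-RUNX1, 1 of 3 was lower (SRM), where 0.917% of all genes were lower and 0.671% higher. With both lesions against WT with Ctrl, 1 of 3 was lower (SRM), where 1.78% were lower and 2.61% higher. The array of Btg1-/- cells with ETV6-RUNX1 is common to these 3 comparisons, and they are not independent of one another. None of the 3 genes passed 2-fold with Btg1 loss under control virus, where 0.312% of all genes were lower and 0.361% higher, or with ETV6-RUNX1 in wild type, where 0.359% were lower and 1.88% higher. With 3 genes, of which 1 was picked for its fall, nothing is read from these shares.

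The factorial design asks whether ETV6-RUNX1 goes with like differences in both genotypes. The effect in Btg1-/- cells minus that in WT cells was -1.97 for SRM (spread 0.35), -0.94 for ODC1 (spread 0.30) and 0.55 for OAZ2 (spread 0.37). Among the 5442 genes that reached the floor in every group, this quantity was past 2-fold in the negative direction for 2.41% and in the positive direction for 1.67%, and SRM was the 1 member past that size. The median over the 3 genes was -0.94, which is the value of ODC1, beside 0.00 over all 5442. Since the list was chosen for the fall of SRM, nothing is read from this.

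**Figure D2:**
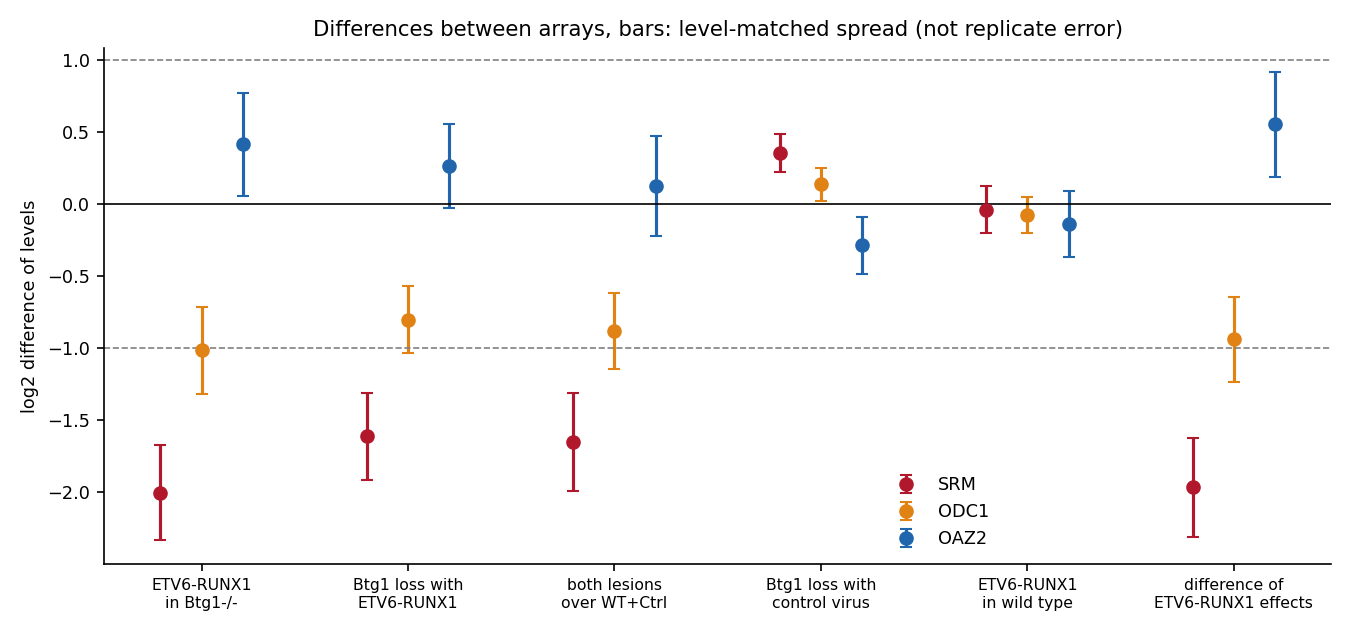
Log2 differences between arrays (vertical axis) for SRM, ODC1 and OAZ2 in the 5 comparisons and in the difference of ETV6-RUNX1 effects between genotypes (horizontal axis). Bars show the spread among genes of like level and not replicate error, and dashed lines mark 2-fold. SRM reaches -2.00 and ODC1 -1.02 with ETV6-RUNX1 in Btg1-/- cells, and both lie near 0 with ETV6-RUNX1 in wild type.

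Differences between members on the same 2 arrays are free of any scaling of a whole array. With ETV6-RUNX1 in Btg1-/- cells, the SRM difference was more negative than that of ODC1 by 0.99 log2 units (SRM minus ODC1, -0.99), and it was -0.81 with Btg1 loss in the presence of the fusion. ODC1 set against the antizyme OAZ2 gave -1.43 with ETV6-RUNX1 in Btg1-/- cells, -1.07 with Btg1 loss in the presence of the fusion and -1.01 with both lesions. The same quantity was 0.42 with Btg1 loss under control virus and 0.06 with ETV6-RUNX1 in wild type. The transcripts of the enzyme and of its antizyme thus differed unequally on the array with both lesions.

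**Figure D3:**
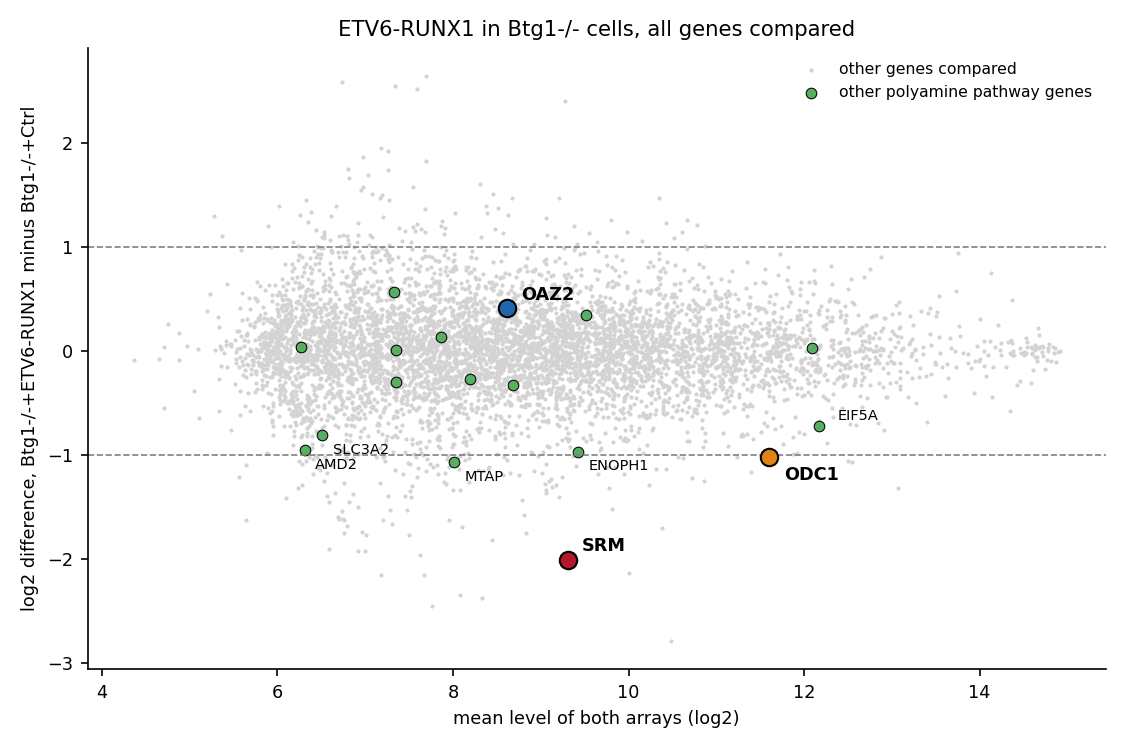
Log2 difference between Btg1-/- cells with ETV6-RUNX1 and Btg1-/- cells with Ctrl (vertical axis) against the mean level of both arrays on the log2 scale (horizontal axis), 1 point for each of 6159 genes, with dashed lines at 2-fold. SRM at -2.00 lies near the lower edge of the genes, ODC1 at -1.02 on the lower 2-fold line and OAZ2 at 0.41 within the bulk.

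The rest of the pathway was described from a list of 27 genes, of which 24 had a row and 14 were compared with ETV6-RUNX1 in Btg1-/- cells. Of these 14, 8 lay below 0 and 6 above, with a median of -0.28 beside 0.01 over all genes. In this comparison 1 of the 14 was lower by 2-fold, MTAP, where 2.37% of all genes were, and 0 were higher by 2-fold, where 1.69% were. With ETV6-RUNX1 in wild type 10 of the 14 lay below 0 and 4 above, with a median of -0.10 beside -0.02 over all genes. None passed 2-fold, where 0.359% of all genes were lower and 1.88% higher. With Btg1 loss in the presence of the fusion 13 were compared, of which 8 lay below 0 and 5 above. Their median was -0.22 beside 0.00 over all genes. None passed 2-fold, where 0.917% of all genes were lower and 0.671% higher. With both lesions against WT with Ctrl 10 of 14 lay below 0, with a median of -0.34 beside -0.01 over all genes. There 1 was lower by 2-fold, ENOPH1, where 1.78% of all genes were lower and 2.61% higher. With Btg1 loss under control virus the median of 14 was 0.00, equal to that over all genes at 2 decimals, and none passed, where 0.312% of all genes were lower and 0.361% higher.

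AMD2 is listed as a gene next to AMD1 in sequence, and RefSeq gives Amd1 among its synonyms, so which copy its 1 probe reads is not settled here. Its level was 5.67 in Btg1-/- cells with ETV6-RUNX1, 6.95 in Btg1-/- cells with Ctrl, 5.93 in WT cells with ETV6-RUNX1 and 6.90 in WT cells with Ctrl. It was thus below the floor on both arrays with the fusion and above it on both without. It was at least 1.93-fold lower with ETV6-RUNX1 in Btg1-/- cells and at least 1.86-fold lower with ETV6-RUNX1 in wild type. With a floor of 5 the difference in Btg1-/- cells was past 2-fold, and all 4 levels stand close to the floor of 6.

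The enzymes that recycle methylthioadenosine, the by-product of the SRM and SMS reactions, were on the array as well. MTAP, which cleaves it, had a level of 7.48 in Btg1-/- cells with ETV6-RUNX1, 8.55 in Btg1-/- cells with Ctrl, 7.99 in WT cells with ETV6-RUNX1 and 8.38 in WT cells with Ctrl. It was lower on each array with the fusion than on the array of the same genotype without it, with differences of -1.07 (2.10-fold, spread 0.41) in Btg1-/- cells and -0.39 (spread 0.27) in wild type. ENOPH1, a later enzyme of this salvage route, had a level of 8.94 in Btg1-/- cells with ETV6-RUNX1, 9.90 in Btg1-/- cells with Ctrl, 9.78 in WT cells with ETV6-RUNX1 and 9.96 in WT cells with Ctrl. Its level was low on the array with both lesions, with differences of -0.96 (1.95-fold, spread 0.35) against Btg1-/- with Ctrl and -1.02 (2.03-fold) against WT with Ctrl. Not all of the route moved this way. APIP, which acts between these enzymes, differed by 0.57 (spread 0.43) with ETV6-RUNX1 in Btg1-/- cells and by 0.32 (spread 0.33) in wild type, and ADI1, the next enzyme after ENOPH1, by 0.04 and -0.14. Of the enzymes that make and recycle S-adenosylmethionine, MAT2A differed by -0.32, MAT2B by 0.13 and AHCY by -0.30 with ETV6-RUNX1 in Btg1-/- cells, each within its spread. MAT2A and AHCY were still lowest on the array with both lesions. MAT2A stood at 8.52 there and at 9.02 in WT cells with ETV6-RUNX1, and AHCY at 7.20 there and at 7.75 in WT cells with Ctrl. MAT2B was instead highest with both lesions, at 7.93.

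EIF5A, the translation factor that carries hypusine, had a level of 11.81 in Btg1-/- cells with ETV6-RUNX1, 12.53 in Btg1-/- cells with Ctrl, 12.42 in WT cells with ETV6-RUNX1 and 12.45 in WT cells with Ctrl. It was lowest with both lesions, differing by -0.72 (spread 0.28) with ETV6-RUNX1 in Btg1-/- cells and by -0.03 in wild type. DHPS, which transfers part of spermidine to EIF5A, differed by -0.27 (spread 0.41) with the fusion in Btg1-/- cells. SLC3A2, a transporter subunit linked to polyamine and amino acid exchange, had a level of 6.10 in Btg1-/- cells with ETV6-RUNX1, 6.91 in Btg1-/- cells with Ctrl, 6.74 in WT cells with ETV6-RUNX1 and 6.91 in WT cells with Ctrl. The difference with ETV6-RUNX1 in Btg1-/- cells was -0.81 (spread 0.44), and the level with both lesions was close to the floor.

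Few genes of ornithine supply, oxidation and lysosomal export were measured. OAT, the mitochondrial enzyme that links ornithine to proline and glutamate, lay between 12.03 and 12.11 on all 4 arrays. PAOX, which oxidizes acetylated polyamines, lay between 7.24 and 7.39. ATP13A2, which exports polyamines from lysosomes, was highest with both lesions and differed by 0.35 (spread 0.34) with ETV6-RUNX1 in Btg1-/- cells and by 0.54 (spread 0.33) against WT with Ctrl. ARG1, ARG2, SLC7A1, AZIN1, the gene listed as ADC (Azin2), OAZ3, SMOX, SAT2, EIF5A2 and 2410018C20RIK (Mri1) were below the floor on all 4 arrays.

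**Figure D4:**
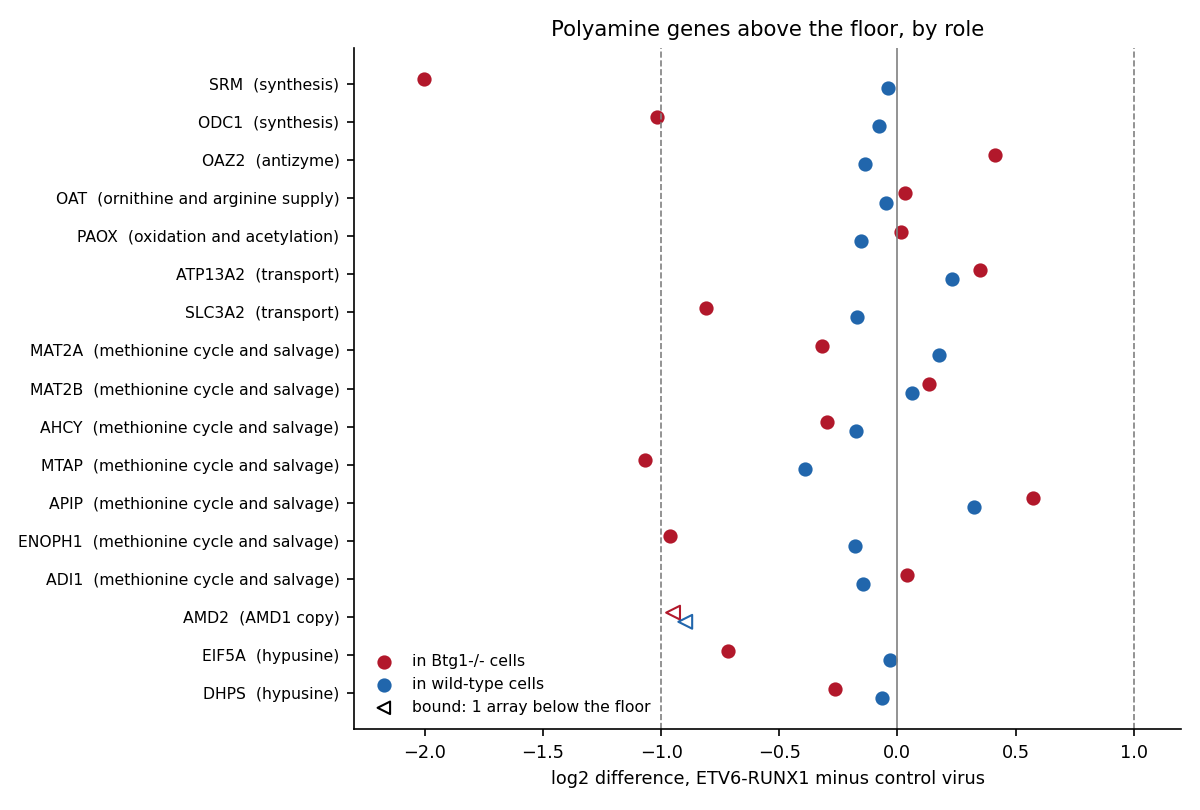
Log2 difference between ETV6-RUNX1 and control virus (horizontal axis) in Btg1-/- cells and in wild-type cells for the 3 measured members and the 14 other pathway genes compared, grouped by role down the page. Dashed lines mark 2-fold and open triangles are bounds. SRM, MTAP and ODC1 lie past 2-fold on the lower side in Btg1-/- cells, OAZ2 and APIP lie above 0, and the open triangles of AMD2 lie at -0.95 in Btg1-/- and -0.90 in wild-type cells.

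MYC, whose E-box was searched for in the promoters, itself lay below the floor on all 4 arrays, as did MYCN and MYCL1. Of its 10 network genes on the array, 4 were compared with ETV6-RUNX1 in Btg1-/- cells. Of these 1 was at least 2-fold higher, where 1.69% of all genes were. With Btg1 loss in the presence of the fusion 2 of 3 were higher, where 0.671% were. With Btg1 loss under control virus 1 of 4 was lower, where 0.312% were. For the difference of effects 1 of 2 was higher, where 1.67% were. None of 3 passed with both lesions (1.78% lower and 2.61% higher over all genes) or with ETV6-RUNX1 in wild type (0.359% and 1.88%). Nothing is read from so few genes. MXD4, a repressor that competes for MAX, was at least 3.18-fold higher, with 7.67 in Btg1-/- cells with ETV6-RUNX1 against 5.95 in Btg1-/- cells with Ctrl. In WT cells with ETV6-RUNX1 and with Ctrl it stood at 6.62 and 7.02. MXD3, a relative of it, had 8.10 and 7.20 in Btg1-/- cells with ETV6-RUNX1 and with Ctrl, and 6.71 and 7.17 in WT cells with ETV6-RUNX1 and with Ctrl. Both repressors were thus highest on the array where SRM and ODC1 were lowest, and whether they bear on those genes was not tested.

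The genes most like SRM and ODC1 were sought among the 5442 genes that reached the floor in every group, by the root mean square difference of levels after each gene's mean over the 4 arrays was subtracted. For SRM they were GRWD1 (0.10), DCTD (0.11), GNL3 (0.12), WDR75 (0.13) and IFRD2 (0.15), in log2 units. For ODC1 they were RSL1D1 (0.03), GFM1 (0.03), PUS7L (0.03), PUS3 (0.04) and CCT6A (0.04). SRM and ODC1 themselves lay 0.38 apart, since the SRM profile is steeper, whereas ODC1 and ENOPH1 lay 0.07 apart. The measure rests on 4 arrays and says nothing of shared function.

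**Figure D5:**
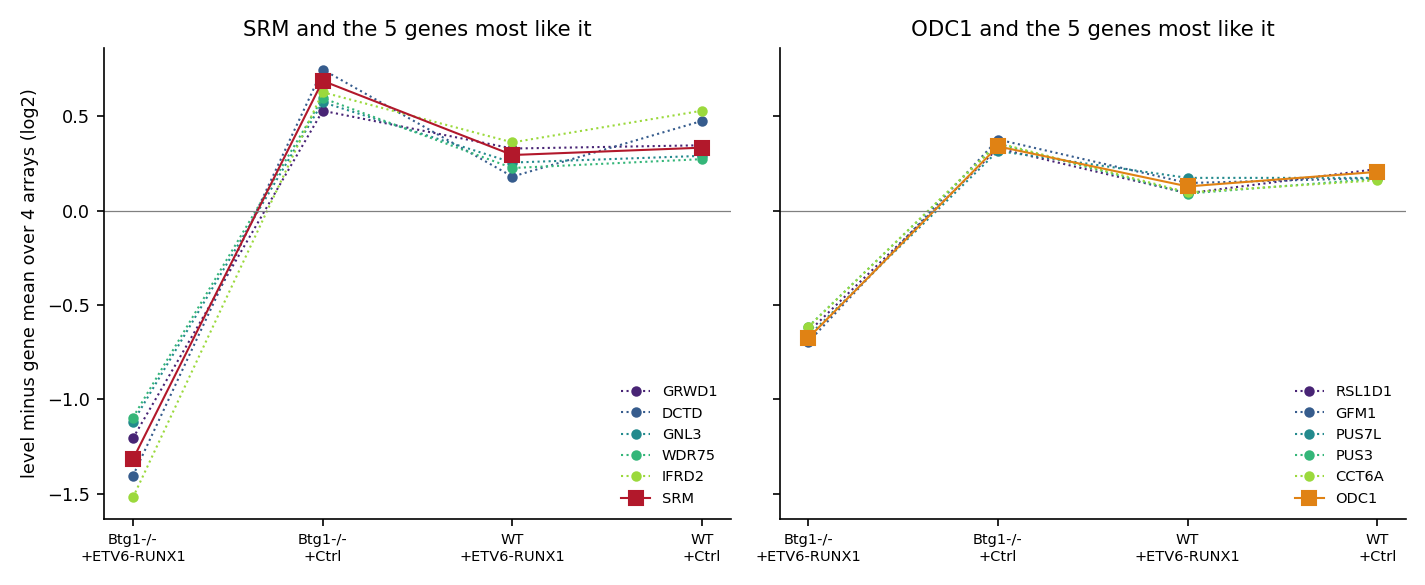
Levels after subtraction of each gene's mean over the 4 arrays (vertical axis, log2) on each array (horizontal axis) for SRM, ODC1 and the 5 genes most like each. SRM stands at -1.32 and ODC1 at -0.68 in Btg1-/- cells with ETV6-RUNX1 and both lie above 0 on the other 3 arrays.

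The cultures also differed in markers of cell types, and in bulk RNA a smaller share of a cell type and less RNA per cell cannot be told apart. Summed levels, on the log2 scale, are given for each of 7 marker lists. Of the 6 markers of dendritic cells and MHC class II, 2 reached the floor on each array. The sum of this list stood in the same order over the arrays as SRM. It was 8.68 and 9.92 in Btg1-/- cells with ETV6-RUNX1 and with Ctrl, and 8.90 and 9.44 in WT cells with ETV6-RUNX1 and with Ctrl. The mean level of the list did not keep this order, at 4.65 with both lesions and 4.62 in WT cells with ETV6-RUNX1. CD74, the invariant chain of MHC class II, had 7.14 and 9.52 in Btg1-/- cells with ETV6-RUNX1 and with Ctrl, and 8.19 and 8.75 in WT cells with ETV6-RUNX1 and with Ctrl. Its difference with ETV6-RUNX1 in Btg1-/- cells was -2.38 (spread 0.37), and its array order was that of SRM. CD74 is part of the sum and brighter than H2-AB1 on all arrays but that with both lesions. Its order and that of the sum are therefore not independent. The other measured gene of the list, H2-AB1, was highest at 7.85 in Btg1-/- cells with ETV6-RUNX1. The erythroid list, of which TFRC and HBB-B1 among 7 reached the floor, also had its lowest sum with both lesions. It summed to 11.14 and 11.72 in Btg1-/- cells with ETV6-RUNX1 and with Ctrl, and to 11.60 and 11.58 in WT cells with ETV6-RUNX1 and with Ctrl. TFRC, at 11.04 with both lesions, makes up most of this sum. HBB-B1 was instead lowest in Btg1-/- cells with Ctrl, at 6.26, beside 6.53 with both lesions. In WT cells with ETV6-RUNX1 and with Ctrl it had 6.74 and 7.07. TFRC, the transferrin receptor, which dividing cells of other kinds also carry, differed by -0.62 (spread 0.29) with ETV6-RUNX1 in Btg1-/- cells and by 0.02 in wild type.

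The other 5 lists did not stand in the array order of SRM. The erythroid sum and TFRC departed from that order only in the 2 wild-type arrays. For SRM these arrays differed by 0.04, less than the spread of 0.16. Of 11 mast cell and basophil markers 10 were on the array, and their sum was 16.29 and 15.60 in Btg1-/- cells with ETV6-RUNX1 and with Ctrl, and 16.32 and 15.07 in WT cells with ETV6-RUNX1 and with Ctrl. It was alike on both arrays with the fusion, where SRM stood at 8.30 in Btg1-/- and 9.91 in WT cells. The 11 of 13 markers of B-cell progenitors on the array summed to 15.64 and 15.30 in Btg1-/- cells with ETV6-RUNX1 and with Ctrl, and to 15.28 and 15.36 in WT cells with ETV6-RUNX1 and with Ctrl. RAG1, a recombinase of B- and T-cell progenitors, differed by 1.47 (spread 0.33) with ETV6-RUNX1 in Btg1-/- cells. The 8 megakaryocyte markers, 1 to 2 of them at the floor or above on an array, summed to 9.44 and 8.21 in Btg1-/- cells with ETV6-RUNX1 and with Ctrl, and to 9.33 and 8.42 in WT cells with ETV6-RUNX1 and with Ctrl. ITGA2B and NFE2 of that list differed by 1.56 and 1.33 with ETV6-RUNX1 in Btg1-/- cells. The 10 granulocyte and monocyte markers, 1 to 4 of them at the floor or above, summed to 9.46 and 8.95 in Btg1-/- cells with ETV6-RUNX1 and with Ctrl, and to 9.26 and 8.35 in WT cells with ETV6-RUNX1 and with Ctrl. S100A8 of that list lay between 7.05 and 7.96 on the 4 arrays, whereas MPO and ELA2 were below the floor on all. The T and NK cell list summed to 8.53 and 8.92 in Btg1-/- cells with ETV6-RUNX1 and with Ctrl, and to 8.21 and 8.19 in WT cells with ETV6-RUNX1 and with Ctrl. LCK, the 1 of its 6 genes that reached the floor, had 8.41 and 8.79 in Btg1-/- cells with ETV6-RUNX1 and with Ctrl, and 7.97 and 7.95 in WT cells with ETV6-RUNX1 and with Ctrl, and CD3E and CD3G were below it on all. The part of these markers in the SRM and ODC1 differences was not tested. Over 8 housekeeping genes, the mean level lay between 11.33 and 11.39 on the 4 arrays.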

How the data were processed

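RNA of 4 cultures was measured on Illumina MouseRef-8 arrays, 1 per group. The authors normalized the arrays with RMA in ArrayStar and deposited log2 levels, 1 per gene name, per the file headers. Because RMA equalizes the arrays' distributions, a change common to most genes cannot be seen. The ratio deposited by the authors for each of 5 comparisons equaled 2 to the power of the difference of levels, within 1.0e-05 on the log2 scale. The non-normalized table has 8 columns whose names match no sample's labels. They were not used, so the planned normexp normalization was not run, and only the number of probe rows per gene was read.

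Values below a floor of 6 were raised to it, and a gene was compared if at least 1 of its 2 arrays reached the floor. A fold with 1 array below it is a lower bound. The spread is the median absolute deviation of log2 differences, multiplied by 1.4826, over a gene and 250 genes on either side of it in mean level. Differences were called at 2-fold. With 1 array per group no test was made, and the number of arrays limits the precision. The members and lists were chosen with earlier results of these data known. The rule names all 7 members, of which the 4 with a row are described. Of the pathway and MYC lists it names the genes past 2-fold in any comparison and the one with the widest range in each role, and for members ranging over at least 1 log2 unit the 5 most alike genes, clone names left out. Further pathway genes, and the cell type markers named, were chosen after their values were seen. Gene pairs with SMS, OAZ1, SAT1 or AMD1 could not be formed. Protein sequences were not used here. Symbols were matched through RefSeq tables of GRCm38.p6. The calculations used Python 3.11.15, numpy 2.4.6, pandas 2.3.3 and matplotlib 3.10.9, and were tested on simulated data.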

Additional observations from a re-analysis of the deposited data

Results flagged for a closer look

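With 1 array per group, no sample could be tested as an outlier. Some effects had opposite signs in the 2 backgrounds, and these differences were not tested. SRM differed by -1.61 with Btg1 loss in the presence of ETV6-RUNX1 and by 0.35 under control virus, a difference of -1.97. ODC1 differed by -0.80 and 0.14 in the same comparisons, a difference of -0.94. OAZ2 differed by 0.26 with Btg1 loss in the presence of ETV6-RUNX1 and by -0.29 under control virus, a difference of 0.55. OAZ2 also differed by 0.41 with ETV6-RUNX1 in Btg1-/- cells and by -0.14 in wild type. The difference of these, 0.55, is the same quantity again and not a further result. Of these OAZ2 effects, 0.26 (spread 0.29) and -0.14 (spread 0.23) lay within the spread. The other values, 0.41 (spread 0.36) and -0.29 (spread 0.20), exceeded it. For SRM and ODC1 the effects of ETV6-RUNX1 were negative in both genotypes. In wild type they were -0.04 (spread 0.16) and -0.08 (spread 0.13), so within the spread and near 0.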

How the results depend on the processing

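No paired analysis was possible because each group had 1 array and no test was made. The alternatives were a floor of 5, a floor of 7, no floor, scaling to an equal 75th percentile, centering on the median, a call that also needs 3 times the spread, and genes at the floor or above in every group. The 2-fold counts of the polyamine genes did not change in any of 41 recalculations, and all 123 recalculated differences of SRM, ODC1 and OAZ2 stayed within their spread of the value given. These genes lie at 8.30 or above on all arrays, so most alternatives could not alter their differences. Only the scaling to an equal 75th percentile and the centering could. The SRM difference with ETV6-RUNX1 in Btg1-/- cells lay between -2.01 and -2.00, and that of ODC1 stayed at -1.02. The planned normexp normalization was not run.

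Counts over all genes moved most. With floors of 5, 7 and none, 379, 152 and 1690 genes passed 2-fold with ETV6-RUNX1 in Btg1-/- cells, in place of 250. With Btg1 loss in the presence of ETV6-RUNX1 they were 174, 50 and 1404, in place of 97. With both lesions they were 431, 166 and 1824, in place of 271. With Btg1 loss under control virus they were 100, 19 and 1468, in place of 41, and with ETV6-RUNX1 in wild type 241, 75 and 1574, in place of 137. For the difference of ETV6-RUNX1 effects between genotypes they were 374, 121 and 3217, in place of 222. Where 3 times the spread was also needed, the counts were 135 with ETV6-RUNX1 in Btg1-/- cells, 60 with Btg1 loss in the presence of the fusion, 175 with both lesions and 91 for the difference of effects.

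Of the other pathway genes, with ETV6-RUNX1 in Btg1-/- cells 2 passed with a floor of 5, 5 with no floor and 0 when 3 times the spread was needed, in place of 1. With both lesions 2 passed with a floor of 5 and 2 with none, in place of 1. With no floor 3 passed, in place of 0, with Btg1 loss in the presence of the fusion, with Btg1 loss under control virus and with ETV6-RUNX1 in wild type, and 5 for the difference of effects.

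Of the MYC network, with ETV6-RUNX1 in Btg1-/- cells 0 passed with a floor of 7, 3 with none and 0 among genes at the floor in every group, in place of 1. With Btg1 loss in the presence of the fusion 1 passed with a floor of 7, with 3 times the spread and among genes at the floor in every group, in place of 2. With Btg1 loss under control virus 0 passed with a floor of 7, 4 with none and 0 among genes at the floor in every group, in place of 1. With no floor 2 passed with both lesions and 3 with ETV6-RUNX1 in wild type, in place of 0. For the difference of effects 2 passed with a floor of 5, 0 with a floor of 7, 6 with none and 0 with 3 times the spread, in place of 1. The floor alternatives add or remove dim genes by construction, and other causes were not tested. Signal near the floor limits SMS, AMD2 and SLC3A2.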
